A study of Mus musculus with 8 samples.

Results

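The genes described here encode the proteins of the cytosolic ribosome in mouse bone marrow progenitors. They are the rows of a table of 23284 gene symbols that read Rpsa, or Rps or Rpl followed by the number of a ribosomal protein (with the letters a, x or l where they belong to the name), or Rplp0, Rplp1 or Rplp2. The rule is on names alone and found 83 genes, of which 32 belong to the small ribosomal subunit, 48 to the large subunit and 3 to the stalk. After the filter on low counts 80 remained for testing. The 3 that did not pass were Rpl10l, Rpl26 and Rpl39l. Pseudogene rows and the proteins of the mitochondrial ribosome are outside the rule.

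RNA was sequenced from LSK cells, the fraction of mouse bone marrow that lacks lineage markers, carries Sca-1 and c-Kit and holds blood stem and multipotent progenitor cells. All mice were Hdc-GFP reporter mice on a C57BL/6 background, in which green fluorescent protein marks cells that use Hdc, the gene of the histamine-forming histidine decarboxylase. The cells were sorted by fluorescence into an Hdc-GFPhi fraction (n = 4 libraries) and an Hdc-GFPlo fraction (n = 4 libraries), and neither had a further allele or treatment in the labels. Each library was amplified from 2000 cells and held 16726179 to 23051277 counts. Both fractions come from reporter mice. The sources used here do not say how the reporter was built or how many animals or pools gave the 8 libraries. The p-values therefore measure the spread between these libraries, which may be in part technical. The cell type label of Hdc-GFPhi replicate 4 reads GFP+ where its title reads GFPhi, and it was kept in its titled group. Markers of LSK cells (Kit, Ly6a, Cd34, Flt3 and Ptprc) all passed the filter, and none was called between the fractions. The mRNA of Hdc itself had a log2 fold change of -0.0075 ± 0.18 (SE) between Hdc-GFPhi and Hdc-GFPlo, with an edgeR adjusted p of 0.995 and overlapping fractions.

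The ribosome is built from ribosomal RNA and about equal numbers of molecules of each ribosomal protein, so the genes of these proteins are transcribed in step and are among the most active in dividing cells. Their mRNAs begin with a run of pyrimidines, the terminal oligopyrimidine (TOP) motif, through which mTORC1 and Larp1 set their translation. Blood formation is sensitive to their dose: loss of a single copy of RPS19, RPL5 or RPL11 in people causes Diamond-Blackfan anaemia, and loss of RPS14 contributes to a myelodysplastic syndrome. Stem cells in the marrow make less protein per cell than more committed progenitors.

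The start regions of several members are shown because the pyrimidine run is the sequence feature by which the family is known. The 6 windows below come from RefSeq (GRCm38.p6), run 5′ to 3′ on the strand of the gene from 25 bases before to 15 bases after the start site given there, and have the longest run of C or T near the start in capitals. The first 4 have long runs, and the last 2 belong to members with high levels and short runs.
Rpl7a (chr2:26910782-26910821, + strand): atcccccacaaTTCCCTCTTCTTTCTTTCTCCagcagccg
Rpl15 (chr14:18270972-18271011, - strand): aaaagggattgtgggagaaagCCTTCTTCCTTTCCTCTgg
Rpl4 (chr9:64173362-64173401, + strand): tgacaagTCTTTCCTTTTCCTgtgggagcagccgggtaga
Rps6 (chr4:86857353-86857392, - strand): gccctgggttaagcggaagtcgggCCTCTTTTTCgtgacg
Rps3 (chr7:99483695-99483734, - strand): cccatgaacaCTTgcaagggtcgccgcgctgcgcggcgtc
Rpl41 (chr10:128549154-128549193, - strand): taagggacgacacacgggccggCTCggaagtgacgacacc
The longest runs were 21 bases in Rpl7a, 17 in Rpl15, 14 in Rpl4, 10 in Rps6 and 3 in Rps3 and Rpl41. RefSeq start windows were matched for 63 of the 83 members. On the strand of the gene, a run of at least 8 bases of C or T that reached within 15 bases of the start was found in 31 of the 63 (49.2%), against 5416 of 27025 genes with a window (20.0%). The median longest run was 7 bases in the members and 5 over all genes. These are matches of letters at annotated starts, and a start annotated some bases off would move a run out of the window, so no reading of translation follows from them.

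A second sequence feature bears on the values themselves. Ribosomal protein genes have many processed pseudogenes, which are copies of the mRNA inserted elsewhere in the genome, and a read from a stretch that is identical in both cannot be assigned to a single place. For each member, every 50-base window of the coding sequence was searched in the transcripts of all other GENCODE M21 genes (GRCm38), pseudogenes included. The 4 stretches below are 60 coding bases of a member beside its closest copy, taken from the same positions of the aligned transcripts, with the bases that differ in capitals. They show a member with 0 counts (Rpl26), a low one (Rps27) and 2 of the highest (Rps3 and Rpl4).
Rpl26 (chr11:68901583-68906989, + strand) and Gm15772 (chr5:3236431-3236868, + strand), identical: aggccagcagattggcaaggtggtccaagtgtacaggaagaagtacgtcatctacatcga
Rps27 (chr3:90212522-90213651, - strand) and Rps27rt (chr9:114982366-114982739, - strand), identical: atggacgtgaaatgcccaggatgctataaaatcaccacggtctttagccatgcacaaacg
Rps3 (chr7:99477896-99483738, - strand): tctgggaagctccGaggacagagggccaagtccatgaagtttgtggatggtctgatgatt
Gm8130 (chr16:23050282-23050851, + strand): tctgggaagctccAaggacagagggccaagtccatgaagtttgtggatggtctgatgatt
Rpl4 (chr9:64173375-64178666, + strand): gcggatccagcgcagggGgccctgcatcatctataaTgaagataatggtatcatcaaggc
Gm5835 (chr1:143093347-143094616, - strand): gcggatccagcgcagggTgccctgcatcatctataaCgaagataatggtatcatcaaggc
Rps27rt is annotated as protein coding, and the other 3 copies are processed pseudogenes. Of the 76 members compared with a copy this way, 64 had a processed pseudogene as the closest copy. Only 5 of these closest copies had a row of their own in the count table.

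Both fractions gave ribosomal protein genes a similar share of all counts. The sources used here do not say how reads shared with copies were counted. The share is therefore one of counts and is not read as a part of the mRNA. The share was 1.62%, 1.55%, 1.45% and 2.03% in Hdc-GFPhi replicates 1 to 4 and 1.54%, 1.62%, 2.23% and 1.496% in Hdc-GFPlo replicates 1 to 4. The means were 1.66% ± 0.253 and 1.72% ± 0.341 (SD, n = 4 each), so the fractions differed by less than the spread between replicates. The 95% Wilson intervals of the single shares were at most 0.00678 percentage points to either side, which covers counting error only. The highest library of each fraction, Hdc-GFPhi replicate 4 and Hdc-GFPlo replicate 3, stood above the other 6. These 2 libraries stand apart for most members, and the results are therefore also given without them. In such bulk samples, fewer cells of a type and less RNA per cell cannot be told apart.

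No ribosomal protein gene was called between Hdc-GFPhi and Hdc-GFPlo. A gene is called where edgeR's quasi-likelihood test gave a Benjamini-Hochberg adjusted p under 0.05 over all 13300 genes tested. Of the 80 tested members, 0 were called, against 0.947% of all genes (0.707% lower and 0.241% higher in Hdc-GFPhi). With 80 genes, a count of 0 is close to that background and is not read as a property of the members. At an unadjusted p under 0.05 there was 1 member, against 10.9% of all genes. In no member did the 4 libraries of the fractions separate without overlap, which 6.92% of all genes did. The DESeq2 Wald test and limma voom also called 0 members, with 1 member each at an unadjusted p under 0.05 (11.9% and 14.9% of all genes), while they called 404 (3.04%) and 278 (2.09%) of all genes.

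The fold changes of the members were small. On the log2 scale, positive where Hdc-GFPhi was higher, they ran from -0.58 to 0.16 (Rps7). Their median was -0.09, beside a median of -0.00045 over all genes. Of the 80 members, 63 lay within 0.2 of zero, as did 8369 of all 13300 tested genes. The SD over the members was 0.144, against 0.408 over all tested genes, which were not matched to the members for level. The 95% interval of 72 members lay inside a 2-fold change either way, against 10710 of the 13300 tested genes. That of 46 members lay inside a 1.5-fold change (0.58 on the log2 scale), against 7924 of all tested genes. The median interval was wider in the members, at 0.43 to either side against 0.34 over all tested genes. The widest interval, 1.71 to either side, belonged to Rpl3l, with few counts.

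**Figure D1:**
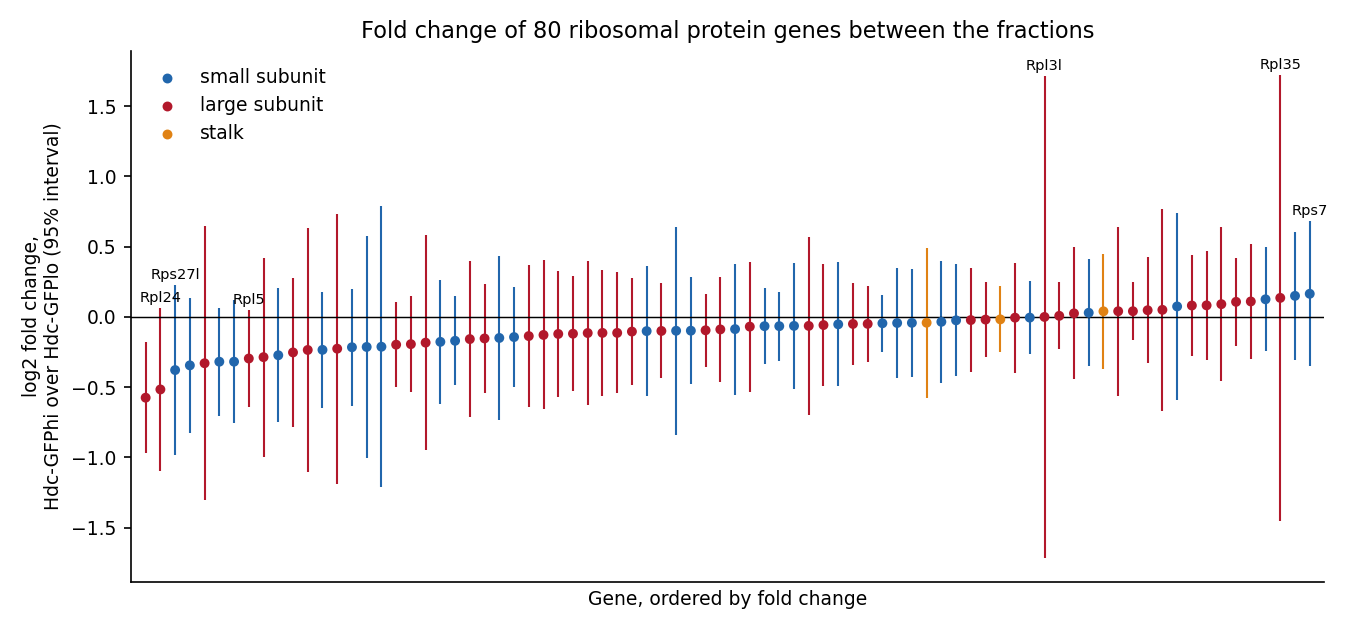
Log2 fold change of Hdc-GFPhi over Hdc-GFPlo (y axis) for each of the 80 tested ribosomal protein genes (x axis, ordered by fold change). Points are edgeR estimates, lines are 95% intervals and colours mark the subunit, with 6 genes named above their intervals; the interval of 1 gene does not reach 0, and the widest belong to Rpl3l and Rpl35.

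More members had a fold change below 0 (62 of 80, 77.5%) than genes at large (50.1%). This balance changed with the test and with the 2 high libraries. With limma voom on all libraries, 42 of 80 members were below 0. Their median was then -0.0038, against -0.0032 over all genes. With Hdc-GFPhi replicate 4 left out, 75 members were below 0 (49.7% of all genes) and the median was -0.24. With Hdc-GFPlo replicate 3 left out, 19 were below 0 (45.9% of all genes) and the median was 0.10. Without both, 50 were below 0 (47% of all genes) and the median was -0.05, against 0.01 over all genes. In that fit 0 members were called (0.816% of all genes), and 7 had an unadjusted p under 0.05 (11.6% of all genes, 5.7% with a lower estimate in Hdc-GFPhi). They included Rpl39, Rpl23, Rps27l, Rps28 and Rpl37, and all 7 had lower estimates in Hdc-GFPhi and edgeR adjusted p values of 0.25 to 0.424. Without Hdc-GFPhi replicate 1, 1 member was called, lower in Hdc-GFPhi, against 0.625% of all genes called in either direction and 0.528% called lower. After removal of a trend of each library on coding length and GC content, 41 of 80 members were below 0 (46.6% of all genes) and the median was -0.0047.

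By subunit, the median fold change was -0.09 for the 32 small subunit genes (27 below 0) and -0.10 for the 45 tested large subunit genes (33 below 0). For the 3 stalk genes it was -0.02. The stalk proteins recruit translation factors to the large subunit. Rplp0, which anchors the stalk, stood at 1311, 1305, 1091 and 1317 CPM in Hdc-GFPhi and at 1214, 1197, 1521 and 1155 CPM in Hdc-GFPlo (CPM, counts scaled to a common library total after TMM). Rplp1 was at 242 to 395 CPM and 233 to 396 CPM, and Rplp2 at 27.4 to 56.8 CPM and 31.2 to 58.3 CPM. In all 3 the fractions overlapped, with log2 fold changes of -0.02 ± 0.11, 0.04 ± 0.19 and -0.04 ± 0.25 (SE) and edgeR adjusted p values of 0.972 or more.

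Members with a lower estimate in Hdc-GFPhi included Rpl24, Rpl5 and Rps27a, none of which passed the test. Rpl24, a late-joining protein at the face between the subunits, was at 5.31, 6.63, 5.34 and 6.11 CPM in Hdc-GFPhi and 5.62, 5.88, 9.58 and 12.4 CPM in Hdc-GFPlo. Only Hdc-GFPlo replicates 3 and 4 stood above the Hdc-GFPhi libraries (log2 fold change -0.52 ± 0.27, edgeR adjusted p = 0.537). Rpl5, which carries the ribosomal RNA of the central protuberance and can bind Mdm2 to stabilize p53, was at 14.4, 13.9, 16.4 and 14.7 CPM against 17.0, 16.2, 22.9 and 16.7 CPM. Its fractions overlapped only by Hdc-GFPhi replicate 3 and Hdc-GFPlo replicate 2 (-0.30 ± 0.16, edgeR adjusted p = 0.556). Rps27a, made as a fusion with ubiquitin, was at 12.7 to 17.0 and 14.9 to 26.3 CPM. The highest value of Rps27a was that of Hdc-GFPlo replicate 3 (edgeR adjusted p = 0.645).

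The members with a higher estimate in Hdc-GFPhi were further from any call. Rps7, whose protein takes part in processing the small subunit RNA, was at 45.7, 34.9, 26.5 and 49.2 CPM in Hdc-GFPhi and 32.1, 29.2, 52.8 and 25.4 CPM in Hdc-GFPlo. The Hdc-GFPlo libraries spanned the whole range of the Hdc-GFPhi libraries (log2 fold change 0.16 ± 0.24, edgeR adjusted p = 0.878). Rps6, the ribosomal target of the S6 kinases downstream of mTORC1, was at 80.4, 50.4, 62.8 and 113 CPM against 66.2, 68.4, 82.6 and 59.1 CPM (0.15 ± 0.21, edgeR adjusted p = 0.873). Its highest library was Hdc-GFPhi replicate 4. Rps12, Rpl10a and Rpl36 were at 12.2 ± 1.68 and 11.2 ± 1.26 CPM, 30.5 ± 4.43 and 28.3 ± 3.47 CPM, and 13.04 ± 2.85 and 12.1 ± 1.28 CPM. Their edgeR adjusted p values were 0.868 to 0.907.

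Genes with a known link to blood disease or to other roles did not differ beyond the spread of their libraries. Rps19 was at 93.1, 78.7, 91.5 and 151 CPM in Hdc-GFPhi and 95.9, 90.1, 142 and 96.7 CPM in Hdc-GFPlo. In each fraction 3 libraries lay close together and 1, Hdc-GFPhi replicate 4 or Hdc-GFPlo replicate 3, stood above (log2 fold change -0.04 ± 0.20, edgeR adjusted p = 0.978). Rpl11, the partner of Rpl5 in the p53 response, was at 5.25 to 9.58 CPM and 6.47 to 10.02 CPM (edgeR adjusted p = 0.905). Rps14 was at 608, 552, 540.2 and 874 CPM against 536, 619, 835 and 533 CPM (0.03 ± 0.18, edgeR adjusted p = 0.98). Rpsa, which is also known as a laminin receptor, had the narrowest interval of the family, -0.25 to 0.16, at 325 to 378 and 354 to 415 CPM.

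**Figure D2:**
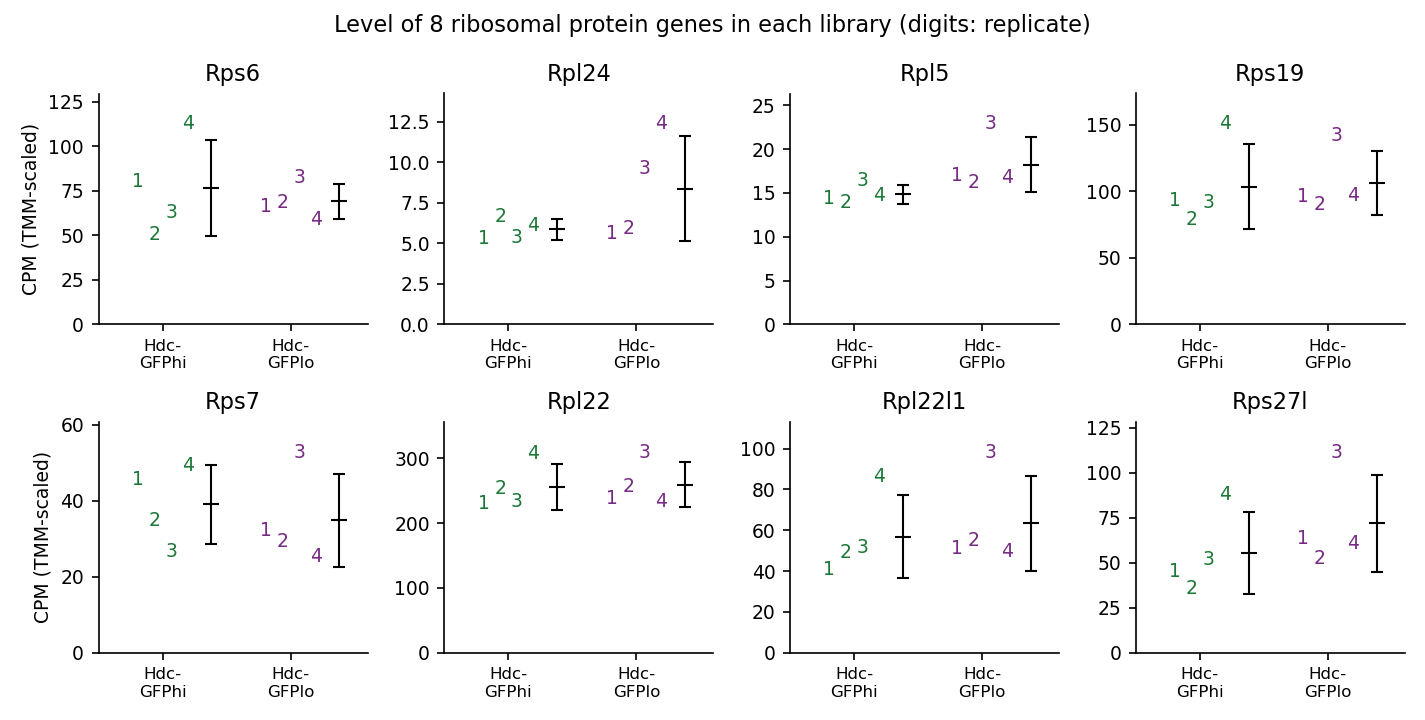
Level of 8 ribosomal protein genes in TMM-scaled CPM (y axis, from 0) in the Hdc-GFPhi and Hdc-GFPlo fractions (x axis); each digit is 1 library and gives its replicate number, and the bars are mean and SD of 4 libraries. Rps6, Rps19, Rps7, Rpl22, Rpl22l1 and Rps27l are highest in Hdc-GFPhi replicate 4 and Hdc-GFPlo replicate 3, and Rpl24 and Rpl5 are not.

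Several ribosomal proteins have a paralogue that can take their place or is used in certain tissues. Rpl22, which is needed for the survival of developing T cells, was at 230.2, 253, 233 and 308 CPM in Hdc-GFPhi and 238, 256, 309.8 and 234 CPM in Hdc-GFPlo. Its paralogue Rpl22l1, which Rpl22 is known to repress, was at 40.6, 49.0, 51.3 and 86.5 CPM against 51.3, 54.8, 98.3 and 49.5 CPM. The ratio of Rpl22l1 to Rpl22 counts was 0.176, 0.194, 0.220 and 0.281 in Hdc-GFPhi and 0.215, 0.214, 0.317 and 0.212 in Hdc-GFPlo. The ratio too was highest in Hdc-GFPhi replicate 4 and Hdc-GFPlo replicate 3, and its means of 0.218 ± 0.0460 and 0.240 ± 0.0518 (SD, n = 4) overlapped. A transcribed pseudogene, Gm15421, has its own row, with 1016 to 2489 counts in Hdc-GFPhi and 985 to 1894 in Hdc-GFPlo, near the 910 to 1941 and 923 to 1774 counts of Rpl22l1 itself. The sources used here do not say how reads were divided between these rows.

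Rps27l is a paralogue of Rps27 and a p53 target. Rps27l was at 45.2, 35.9, 52.0 and 88.2 CPM in Hdc-GFPhi and 63.5, 52.3, 111 and 60.4 CPM in Hdc-GFPlo, while Rps27 was at 3.07 to 4.86 and 3.27 to 5.26 CPM. The paralogue thus had the larger count in all 8 libraries, by 9.29 to 21.5 times. Rps27 has a coding copy with the identical stretch shown above, and 100% of its coding windows are identical elsewhere, against 48.3% for Rps27l. Neither gene was called (edgeR adjusted p = 0.712 for Rps27l and 0.91 for Rps27).

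Rpl7l1, a relative of Rpl7, was at 181 to 226 CPM in Hdc-GFPhi and 196 to 208 CPM in Hdc-GFPlo. Rpl7 was at 340.0 to 455 and 329 to 606 CPM. Rpl3l, the striated muscle form of Rpl3, was near the limit of detection, at 0.280 to 1.29 and 0.222 to 1.66 CPM, while Rpl3 was at 245 to 294 and 237 to 317 CPM. Of the X-linked members, Rps4x was at 341 to 461 and 367 to 621 CPM and Rpl10 at 18.6 to 34.2 and 22.1 to 33.9 CPM. The testis forms Rpl10l and Rpl39l had 0 counts in all 8 libraries and 0 to 9 counts per library, respectively. The symbol Rps4y2 is outside the name rule, and RefSeq lists it as a synonym of Rps4l, a relative of Rps4x. The row Rps4y2 had 193 to 375 counts in Hdc-GFPhi and 188 to 270 in Hdc-GFPlo. Rpl39 was at 32.0, 33.3, 38.1 and 82.1 CPM in Hdc-GFPhi and 44.6, 47.2, 92.7 and 41.9 CPM in Hdc-GFPlo. None of these was called.

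Rpl26, a core protein of the large subunit, also had 0 counts in all 8 libraries, which allows up to 3 counts per library or 0.133 to 0.178 CPM, by counting error only. Of its coding windows, 87.3% are identical in another gene, and its copy Gm15772 also had 0 counts in all libraries. Whether Rpl26 was transcribed cannot be read from these values, since the sources used here do not say how reads with several matches were handled.

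Levels differed far more between members than between fractions. To compare genes, the mean CPM over 8 libraries was divided by the coding length in kilobases. This level ran from 0.581 (Rpl3l) to 5510.4 (Rpl41), a 9478-fold range, with a median of 165. The highest were Rpl41, the smallest ribosomal protein, and then Rps3 at 2022, a small subunit protein at the mRNA entry. The lowest were Rpl3l, Rpl30 at 2.77 and Rpl23a at 6.56, of which the last 2 are core proteins of the large subunit. Rpl41 has a coding length of 75 bases, so reads from its untranslated regions weigh more in this level than they do for longer members. The 10 members with the most counts held 59.9% of all counts on the family.

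The level went with how much of the coding sequence is found elsewhere. The 29 members with every coding window identical in another gene had a median level of 41.0 CPM per coding kilobase (6.56 to 5510.4). The 37 members with 50% to under 100% of windows shared had a median of 219 (2.77 to 1406), and the 14 members under 50% had a median of 924 (0.581 to 2022). Rps3 shares 8.09% of its windows, Rpl8 8.73% and Rpl4 20.3%, and these 3 are among the 10 highest members. Rpl30 shares 83.1% and Rpl23a 100%. Across the 80 genes Spearman's rho was -0.59, and -0.65 over the 76 that are not tissue forms or paralogues, as a description, since the genes share libraries and sequence origin. Single genes departed from this order, among them Rpl41, high with 100% shared, and Rpl3l, low with 0%. Whether reads with several matches were dropped before counting was not tested. The levels are therefore given as values of this table and not as amounts of mRNA of each gene relative to the others.

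**Figure D3:**
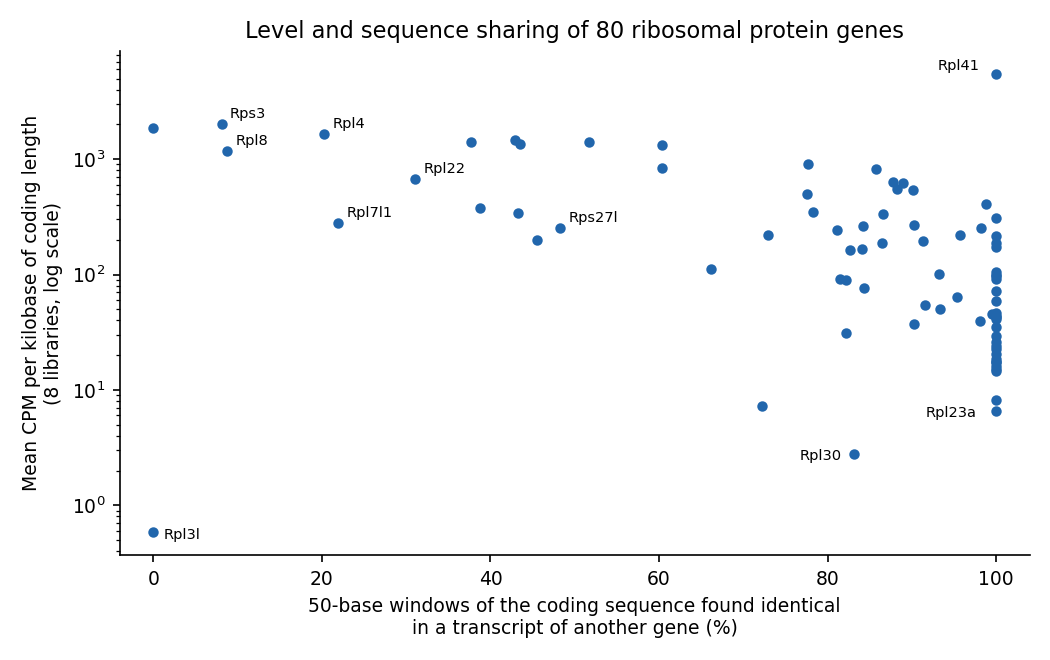
Mean level of the 80 tested ribosomal protein genes in CPM per kilobase of coding length (y axis, log scale, mean of 8 libraries) against the percentage of their 50-base coding windows found identical in a transcript of another gene (x axis). Each point is a gene; the 29 genes at 100% have a median of 41.0, and the 14 genes under 50% a median of 924.

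The clearest pattern among the members was that they moved together by library and not by fraction. Each gene's log2 CPM in a library was set against its own mean over the 8 libraries. The median of this deviation over the 80 members was -0.07, -0.21, -0.20 and 0.36 in Hdc-GFPhi replicates 1 to 4. In Hdc-GFPlo replicates 1 to 4 it was -0.09, -0.08, 0.49 and -0.14. Over the other genes the medians lay within 0.02 of zero in every library. The scaling and the centring of each gene largely set this in advance, so it does not show that other genes stayed in place. In Hdc-GFPlo replicate 3, 78 of 80 members were above their own mean (50.3% of other genes), and in Hdc-GFPhi replicate 4, 73 were (51.0%). Both were so for 71 members (28.5% of other genes), and for 65 members these were the top 2 of the 8 libraries (12.1% of other genes). The highest library was Hdc-GFPlo replicate 3 for 52 members and Hdc-GFPhi replicate 4 for 20. The lowest was most often Hdc-GFPhi replicate 2 (27 members) or 3 (21). For these counts of highest and lowest library no share of other genes is given.

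**Figure D4:**
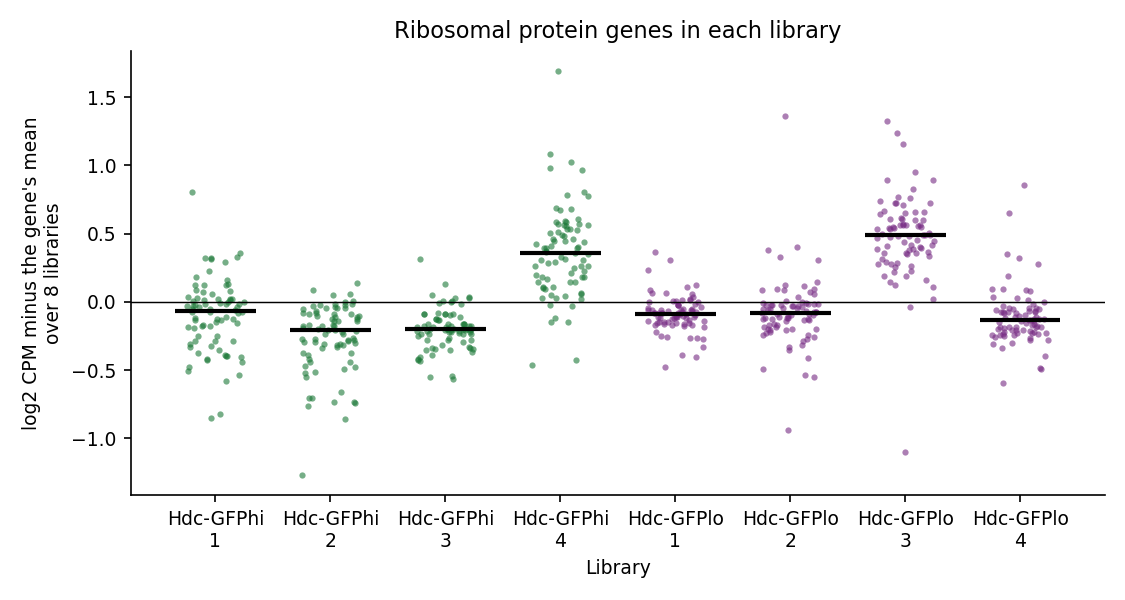
Deviation of each of the 80 tested ribosomal protein genes from its own mean log2 CPM over 8 libraries (y axis) in each library (x axis). Points are genes, black bars are medians; the medians of Hdc-GFPhi replicate 4 (0.36) and Hdc-GFPlo replicate 3 (0.49) stand above 0 and those of the other 6 libraries below it.

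The difference between the mean of these 2 libraries and the mean of the other 6 had a median of 0.57 on the log2 scale over the members. It ran from -0.18 to 2.01 (Rpl35), was above 0 for 77 and above 1 for 8, with no share of other genes given. Rpl35, chosen after its values were seen, was at 11.5, 9.52, 10.8 and 51.9 CPM in Hdc-GFPhi and 12.2, 10.99, 40.2 and 12.9 CPM in Hdc-GFPlo. The 2 libraries were thus more than 3 times the other 6 for this gene. Rpl37, likewise chosen, was at 12.7, 16.9, 17.0 and 45.4 against 20.7, 21.2, 54.3 and 19.7 CPM. At the other end, 3 members were not above 0 in this difference, Rps13 and Rpl3l among them. The 8 above 1, named after their values were seen, were Rpl35, Rpl37, Rps23, Rpl39, Rps28, Rps29, Rps21 and Rpl37a, with coding lengths of 153 to 429 bases. The median correlation between 2 members over the 8 libraries was 0.73, with the same libraries and scaling behind every pair.

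Short members moved more. In Hdc-GFPhi replicate 4 the median deviation was 0.78 for the 10 members with a coding length under 300 bases and 0.41 for the 27 from 300 to under 450 bases. It was 0.35 for the 19 from 450 to under 600 bases and 0.17 for the 24 of 600 or more. In Hdc-GFPlo replicate 3 the same medians were 0.66, 0.56, 0.49 and 0.36. Other genes under 600 bases moved the same way by less. The 336 others under 300 bases were at 0.21 and 0.43 in the 2 libraries, and the 10827 of 600 to under 5000 bases at -0.01 and -0.03. Over the 80 members, Spearman's rho between deviation and coding length was -0.45 in Hdc-GFPhi replicate 4 and -0.48 in Hdc-GFPlo replicate 3, and 0.55 in Hdc-GFPhi replicate 2. With the trend on coding length and GC content removed, the members' medians were 0.27 in Hdc-GFPhi replicate 4 and 0.25 in Hdc-GFPlo replicate 3, against 0.04 and 0.02 for other genes. With the trend on transcript length and GC content removed instead, they were lower, at 0.25 and 0.17, against 0.04 and 0.01 for other genes. What set these 2 libraries apart was not tested.

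**Figure D5:**
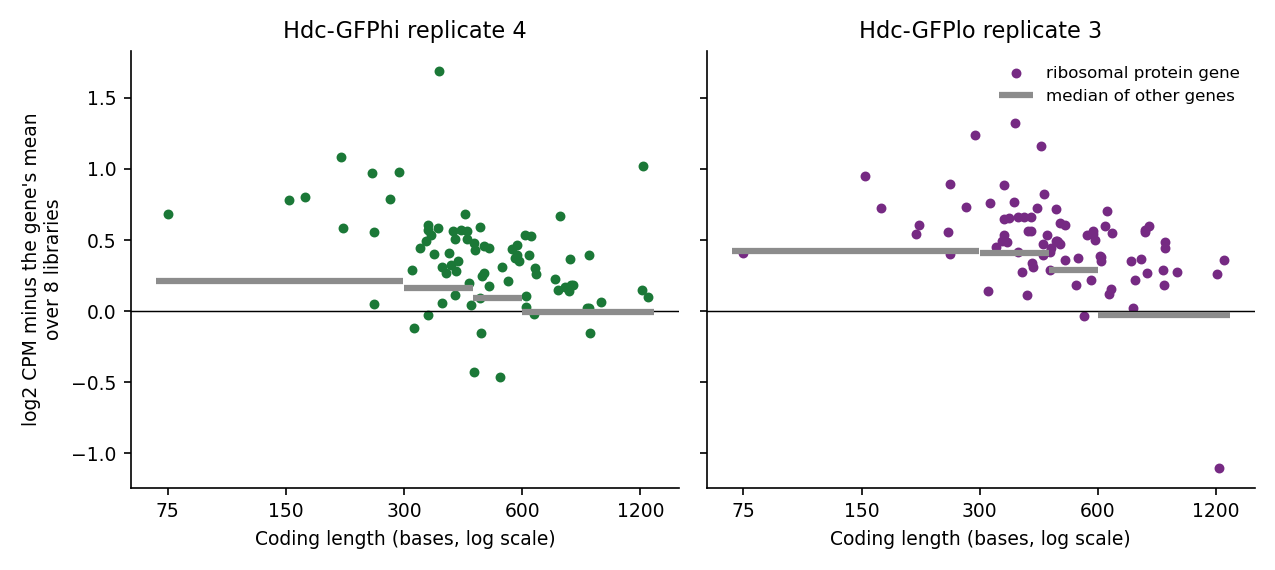
Deviation of the tested ribosomal protein genes from their own mean log2 CPM (y axis) against coding length (x axis, log scale) in Hdc-GFPhi replicate 4 and Hdc-GFPlo replicate 3. Points are genes and grey bars are medians of all other genes of the same length range, drawn from under 300 bases to 600 or more; most members lie above the bar of their length.

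Other parts of the translation machinery were examined from lists of known genes. The lists were not matched for coding length, and short genes at large also rose in the 2 libraries. Genes outside the family with 300 to under 450 coding bases were at 0.16 in Hdc-GFPhi replicate 4 and 0.41 in Hdc-GFPlo replicate 3. Those of 450 to under 600 bases were at 0.09 and 0.29. The 4 other components of the cytosolic ribosome (among them Fau, Gnb2l1 and Rpl36al) moved like the members by library, with median deviations of 0.41 in Hdc-GFPhi replicate 4 and 0.59 in Hdc-GFPlo replicate 3. None was called. Elongation factors and other TOP mRNAs (14 genes) had 0.13 and 0.37, and 0 of 14 were called. Npm1, a nucleolar chaperone of ribosome assembly, had the smallest p of these, at 443 ± 72.3 and 546 ± 131 CPM (means ± SD of 4 libraries, Hdc-GFPhi first, as in the values below; edgeR adjusted p = 0.555). The 76 mitochondrial ribosomal proteins had 0.18 and 0.38, with 0 called and a median log2 fold change of -0.07. Mrpl1, with the smallest p of these, was at 40.4 ± 5.01 and 50.2 ± 8.54 CPM (edgeR adjusted p = 0.456). The snoRNA host genes, many of which are TOP genes, had 0.18 and 0.58, with 0 of 10 called. Snhg1 had the smallest p, at 78.6 ± 12.9 and 97.0 ± 18.5 CPM (edgeR adjusted p = 0.53). Initiation factors (40 tested) had 0.08 and 0.19 and ribosome biogenesis factors (45) 0.09 and 0.21, with 0 called in either. The smallest p belonged to Eif2s1, a subunit of the initiation factor that brings the initiator tRNA, at 182 ± 31.5 and 243 ± 38.5 CPM (edgeR adjusted p = 0.255). In biogenesis it belonged to Nmd3, the export adaptor of the large subunit, at 88.4 ± 8.87 and 111 ± 12.4 CPM (edgeR adjusted p = 0.272).

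Lists of regulators of these genes had median deviations below those of the ribosomal protein genes in the 2 libraries. These lists too were not matched for coding length, and no length trend was removed from their medians. The part of gene length in these values was not tested. The mTORC1, Larp1 and S6 kinase list (17 genes) was at 0.01 in Hdc-GFPhi replicate 4. In Hdc-GFPlo replicate 3 it was at -0.22, opposite in direction to the ribosomal protein genes. The Myc family list (12 genes) was at 0.02 and -0.0026, and RNA polymerase I (13 tested), which transcribes ribosomal RNA, at 0.04 and 0.12. None of their members was called. The genes with the smallest p were Rps6kb1, an S6 kinase, at 115 ± 7.17 and 141 ± 17.8 CPM, Mycn, at 363 ± 32.6 and 287 ± 27.4 CPM, and Twistnb, an RNA polymerase I subunit, at 59.2 ± 8.15 and 73.8 ± 10.1 CPM (edgeR adjusted p = 0.314, 0.194 and 0.401). Of 14 genes in the p53 list, Trp53inp1, a p53 target that promotes cell death and autophagy, was called lower in Hdc-GFPhi, at 53.5 ± 7.78 against 88.2 ± 10.8 CPM (log2 fold change -0.72 ± 0.13, edgeR adjusted p = 0.0242).

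Markers of cell types were read beside the 2 libraries. Of 5 markers of mast cells and basophils, all had some counts and 3 passed the filter. Their summed level was 11.1 to 68.5 CPM in Hdc-GFPhi and 6.46 to 95.2 CPM in Hdc-GFPlo, and their median deviation was 0.98 in Hdc-GFPhi replicate 4 and 2.037 in Hdc-GFPlo replicate 3. Prss34, a basophil protease, had 0, 777, 494 and 1069 counts in Hdc-GFPhi and 0, 0, 1120 and 3 in Hdc-GFPlo. Mcpt8, another basophil protease, had 43, 79, 88 and 158 counts in Hdc-GFPhi and 40, 31, 266 and 47 in Hdc-GFPlo, highest in Hdc-GFPhi replicate 4 and Hdc-GFPlo replicate 3. All 7 neutrophil markers passed the filter, and their summed level was 1752 to 2396 CPM and 2135 to 2901 CPM. Their median deviation was 0.00 in Hdc-GFPhi replicate 4 and 0.60 in Hdc-GFPlo replicate 3. The part of such cells in the members' values was not tested. Early lymphoid markers divided the fractions and not these libraries. All 5 were called lower in Hdc-GFPhi, with summed levels of 226 to 411 against 1127 to 1630.0 CPM, and of 5 stem cell markers 1, Esam, was called higher, at 108 ± 19.2 against 58.4 ± 12.7 CPM (edgeR adjusted p = 0.0253). Of 7 B cell markers, 4 (Cd79a, Ebf1, Vpreb1 and Igll1) were called lower, with summed levels of 94.5 to 177 against 279.8 to 544 CPM. Of the 6 megakaryocyte, 5 nuclear RNA, 4 tested erythroid and 1 tested T and NK cell markers, 0 were called, and the 9 mitochondrial transcripts have no row in the table. The smallest edgeR adjusted p in these lists was 0.0862 for Itga2b, 0.645 for Kcnq1ot1, 0.36 for Car1 and 0.0748 for Klrd1. In the lists of LSK, neutrophil and mast cell or basophil markers it was 0.0965 for Flt3, 0.437 for S100a9 and 0.897 for Cpa3.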

How the data were processed

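RNA-seq of sorted LSK cells was analysed from 1 table with 8 libraries as columns and gene symbols as rows. The authors deposited it as whole-number read counts with no normalization. Per the labels' protocols, cDNA from 2000 cells per library was amplified by SMARTer chemistry before Nextera XT preparation. The tools named in the submitters' processing notes are HTSeq 0.6.1, TopHat2 2.04, Bowtie2 and bcl2fastq 1.8.4, with build mm9. The sources used here do not name the annotation, read length, strand setting or treatment of reads with several matches, so reads shared with copies, overlapping or antisense genes cannot be told apart.

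Groups and replicate numbers come from the titles. The filterByExpr function of edgeR kept 13300 of 23284 genes, which were scaled by TMM and tested with edgeR 4.0.16 (glmQLFit with robust estimation, glmQLFTest) in R 4.3.3, Benjamini-Hochberg threshold 0.05. Fold changes are given ± SE. The biological coefficient of variation was 19.9%. A prior count of 2 went into log2 CPM. No pair of libraries in a fraction agreed within sampling noise (chi-square per degree of freedom at least 13.3). Over all genes, the pairs with Hdc-GFPlo replicate 3 stood at 49.8 to 55.4 and the other Hdc-GFPlo pairs at 13.3 to 18.2. The Hdc-GFPhi pairs stood at 18.5 to 38.2. Hdc-GFPhi replicate 4 had counts on 14856 genes, the fewest, and the other libraries on 15215 to 15446. The library totals set the counting precision, and the amplification carries no molecular identifiers.

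The members and the 21 lists were chosen with earlier results of these data known. Coding lengths, GC content and shared windows came from GENCODE M21 transcripts (GRCm38, not the authors' build), matched for all 83 members. Members named are taken from the 5 with the smallest p in each direction, paralogue pairs, Rps6, Rpsa, the stalk genes and 4 genes linked to blood disease, the highest and lowest levels per coding length, those failing the filter, and of each list the called and the smallest-p gene; some genes that meet this rule are not reported here. Alternatives were other scalings, filters and tests, the replicate number as a block, a split of replicates as a covariate, removal of a transcript length and GC trend, pseudogene rows added, and each library left out. Removing the coding length trend and the joint removal of Hdc-GFPhi replicate 4 and Hdc-GFPlo replicate 3 were chosen after seeing the data.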

Additional observations from a re-analysis of the deposited data

Results flagged for a closer look

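In 30 named ribosomal protein genes and the share of counts, 62 groups of 4 libraries were checked for a library far from the other 3. Chance gives about 1 in 20 such groups, and 13 were found. In 11 of them Hdc-GFPlo replicate 3 was high. It stood at 22.9 CPM for Rpl5 (others 16.2 to 17.0), 26.3 for Rps27a (14.9 to 15.97), 98.3 for Rpl22l1 (49.5 to 54.8) and 92.7 for Rpl39 (41.9 to 47.2). It was at 621 CPM for Rps4x (367 to 403), 142 for Rps19 (90.1 to 96.7), 415 for Rpsa (354 to 359) and 1864 for Rps3 (1339 to 1419). For the stalk genes it was at 1521 CPM for Rplp0 (1155 to 1214), 396 for Rplp1 (233 to 256) and 58.3 for Rplp2 (31.2 to 35.1).

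Hdc-GFPhi replicate 4 was high for Rpl39, at 82.1 CPM (others 32.0 to 38.1). Hdc-GFPhi replicate 3 was low for Rplp0, at 1091 CPM (1305 to 1317). The genes move together, so these are not separate events.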

How the results depend on the processing

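No ribosomal protein gene was called in the main test or in any alternative but 1: without Hdc-GFPhi replicate 1, 1 member was called lower, so that the count of called members ran from 0 to 1 over the fits with 1 library left out. With 1 library left out, the count over all genes ran from 52 (without Hdc-GFPlo replicate 1) to 146, against 126 with all libraries, and was 68 without Hdc-GFPhi replicate 3. Over all genes it was 404 with the DESeq2 Wald test, 278 with limma voom, 275 with replicates 1 and 2 set apart from 3 and 4 by a covariate, 263 with the transcript length and GC trend removed and 248 with the coding length trend removed. With the replicate block it was 224, and 463 with the block and that transcript trend removed together, with 0 members called in either. Libraries with the same number deviated together with correlations of 0.257, 0.347, 0.0755 and 0.100. Replicates 1 and 2 correlated best with their own number in the other fraction. Hdc-GFPhi replicate 3 and Hdc-GFPlo replicate 4 were each other's best match over all genes. So were Hdc-GFPhi replicate 4 and Hdc-GFPlo replicate 3, the 2 high libraries. The labels state no pairing, so the numbers are not read as pairs. The block joined equal numbers, and a block with replicates 3 and 4 crossed was not fitted. The members' median fold change ran from -0.24 without Hdc-GFPhi replicate 4 to 0.10 without Hdc-GFPlo replicate 3, and so changed sign. The SD of the members' median deviation between libraries of a fraction was 0.282. That is a spread of single libraries and not the error of a fold change. The shares of counts moved by less than 1 SD in the alternatives that can change them.

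Fold changes near zero changed sign. This happened with upper-quartile factors for Rpl3l (0.00092). It happened with no composition factor for Rpl22 (0.0036), Rpl3l (0.016) and Rplp0 (0.0058). It happened with limma voom for Rpl22 (0.025), Rpl7 (0.089), Rplp0 (0.051), Rplp2 (0.049), Rps3 (0.00060) and Rpl30 (0.069). It happened with the replicate block for Rpl3l (0.18) and Rpl41 (-0.025). It happened with that covariate for Rpl3l (0.15). It happened with the transcript length and GC trend removed for Rpl22 (0.013), Rpl22l1 (0.12), Rpl7 (0.069) and Rplp0 (0.022). It happened with the replicate block and that trend removed together for Rpl22 (0.0056), Rpl22l1 (0.11), Rpl3l (0.15), Rpl7 (0.070) and Rplp0 (0.020). It happened with the coding length and GC trend removed for Rpl22 (0.12), Rpl22l1 (0.13), Rpl3l (0.021), Rpl7 (0.041), Rps19 (0.032), Rplp2 (0.036) and Rpl30 (0.023). It happened with Hdc-GFPlo replicate 3 and Hdc-GFPhi replicate 4 both left out for Rpl7 (0.080), Rps4x (0.0025), Rpsa (0.013), Rplp0 (0.070), Rpl41 (-0.10) and Rpl30 (0.17). With 1 library left out, the log2 fold changes that changed sign ran as follows: Rpl10 -0.26 to 0.024, Rpl11 -0.27 to 0.0057, Rpl22 -0.12 to 0.091, Rpl22l1 -0.43 to 0.15, Rpl3 -0.045 to 0.12, Rpl30 -0.39 to 0.18, Rpl39 -0.71 to 0.073, Rpl3l -0.47 to 0.80, Rpl41 -0.26 to 0.19, Rpl7 -0.19 to 0.16, Rpl7l1 -0.0015 to 0.10, Rplp0 -0.062 to 0.095, Rplp1 -0.14 to 0.26, Rplp2 -0.30 to 0.23, Rps14 -0.15 to 0.21, Rps19 -0.27 to 0.15, Rps3 -0.16 to 0.067, Rps4x -0.23 to 0.074, Rps6 -0.097 to 0.30 and Rpsa -0.072 to 0.027. The cause was not tested for any of these, and none was called. Rpl3l, Rpl30, Rpl34, Rpl23a and Rpl28 had under 5 CPM in every library, so few counts stand behind their values.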
